A study of Danio rerio with 5 samples.

Results

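The genes described here encode proteins of pre-mRNA splicing in zebrafish: snRNP proteins, SR proteins, hnRNP proteins and further splicing factors. They were taken by gene symbol from the platform annotation (symbols that start with srsf, snrp, snrnp, sf3a, sf3b, hnrnp, prpf, u2af or lsm and a digit). The rule itself uses no values. The members, and the role groups and gene lists used below, were chosen with earlier results of these data known. The rule gave 81 genes of 8793 with exactly 1 symbol on a probe set, and each gene is represented by its probe set with the highest mean. Total RNA of AB wild-type young adults was hybridised to Affymetrix zebrafish arrays, 1 array for each of 5 conditions. Fish had been kept for 24 h without food in the BTF mix (benzene, toluene and formaldehyde together), in formaldehyde, in toluene, in benzene, or in DMSO, the solvent in which all of these were prepared. The labels give no dose, tissue or number of fish, and their single entry for sex names no male or female group.

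Splicing removes introns from pre-mRNA in the nucleus. The spliceosome is built from small nuclear ribonucleoproteins (snRNPs), each an RNA with a ring of Sm or LSm proteins and proteins of its own. U1 binds the 5′ splice site, U2 the branch site, and the U4/U6.U5 tri-snRNP then joins to form the catalytic centre. SR proteins mostly bind exons and favour their use, and many hnRNP proteins oppose them, so their balance shapes alternative splicing.

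With 1 array per condition no test can be run, and no value below has a replicate check. The deposited values are log2 levels. A difference is the exposed array's log2 level minus that of the DMSO array, and a gene is counted when it was at least 2-fold apart, a difference of 1. Every comparison shares the DMSO array. The BTF mix array stood apart from the others, with correlations across probe sets of 0.692 to 0.739 with them, against 0.979 to 0.992 among the other 4. Levels of different genes come from different probes and are not compared with each other. In RNA from a mixture of cells, fewer cells of a type and less RNA per cell cannot be told apart.

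With the BTF mix, most splicing factor genes were lower than with DMSO, and a small set of SR and hnRNP genes was higher. Of 81 genes, 33 were at least 2-fold lower (40.7%; 27.8% of all genes) and 5 were at least 2-fold higher (6.17%; 20.6% of all genes). The median difference was -0.86, against -0.01 over all genes. On the mix array 57 of the 81 lay below every other array, as did 44.3% of all genes, and 17 lay above every other array, as did 44.1% of all genes. By at least 2-fold, 28 lay below all 4 other arrays (23.5% of all genes did) and 3 above them (17.6%).

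Most splicing factor genes had levels in the upper range of the arrays, and the shares of all genes differ with level. Among genes with a level of at least 8 on the DMSO array, 33 of 74 splicing factor genes were at least 2-fold lower with the mix (44.6%), beside 47.6% of all 4393 such genes. Their median was -0.94, beside -0.90 for all genes at that level. Of the same 74 genes 3 were at least 2-fold higher, or 4.05%, beside 10.0% of all genes at that level. The share of lower genes is thus near that of all genes above this floor, but not in each band of level. With a DMSO level of 8 to 9, 16.7% of 12 splicing factor genes were lower, beside 42.7% of all genes. At 9 to 10 it was 57.9% of 19 beside 51.0%, at 10 to 11 it was 30.4% of 23 beside 51.7%, and from 11 on 65% of 20 beside 46.4%. The floor and the bands use the DMSO array, which every difference also subtracts. Genes dim with DMSO and brighter with the mix, such as hnrnpua and hnrnpa0a, thus fall below the floor. Another filter kept genes that reached the median of all deposited values on any array. There 42.3% of 78 splicing factor genes were lower, beside 35.8% of 6675 genes, and 5.13% higher, beside 23.2%.

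**Figure D1:**
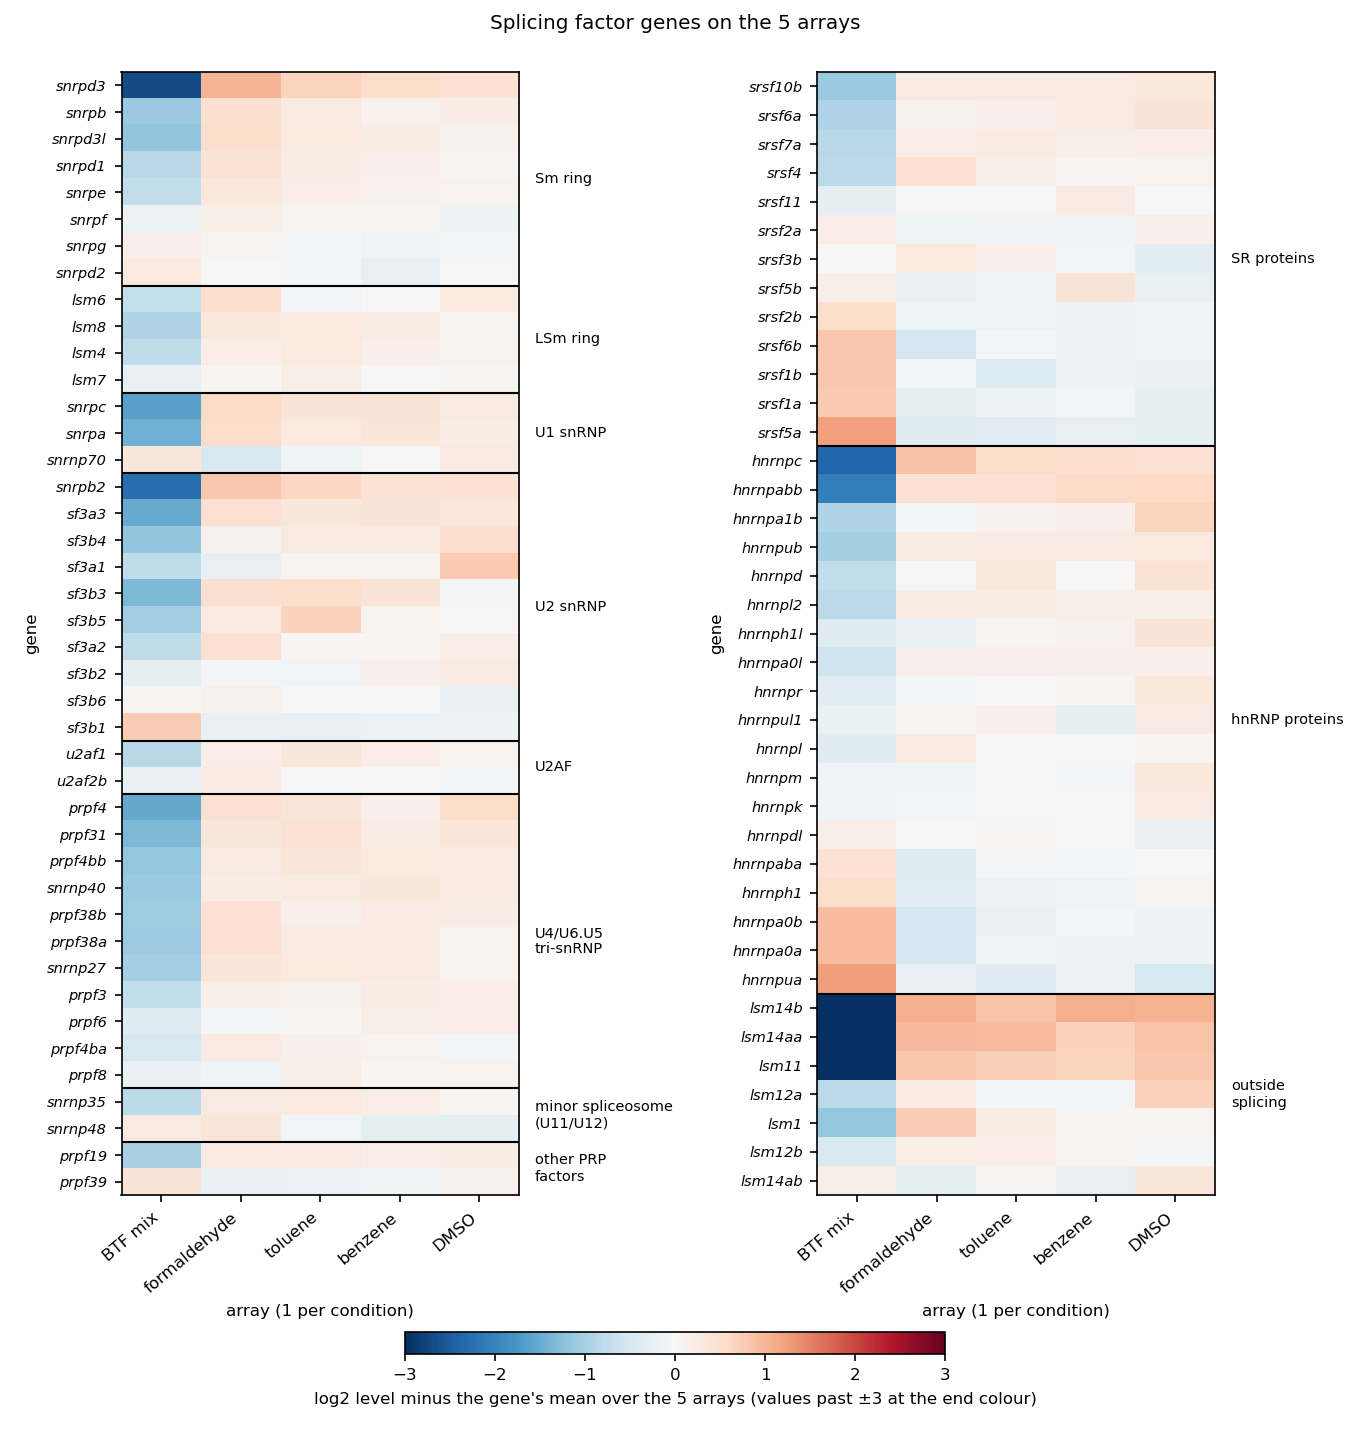
Heat map of the 81 genes, in rows by role, on the 5 arrays, in columns; the colour is the log2 level minus the gene's mean over the 5 arrays. The BTF mix column differs from the other 4, with lsm14b, lsm14aa, lsm11 and snrpd3 furthest below their means, and a band of SR and hnRNP genes higher in it.

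The counts moved with the scaling of the arrays. After cyclic loess normalization of the deposited values, 14 of the 81 genes (17.3%; 20.6% of all genes) were lower with the mix by at least 2-fold and 13 (16.0%; 21.5%) higher. After quantile normalization 23 (28.4%; 24.9%) were lower and 8 (9.88%; 21.7%) higher. The median of the 81 was -0.24 after loess and -0.64 after quantile normalization. Of the 2-fold differences among the 81 genes, 13.2% were higher as deposited, 25.8% after quantile and 48.1% after loess normalization. Of all genes 20.6% were at least 2-fold higher and 27.8% lower as deposited. These shares were 21.7% and 24.9% after quantile, and 21.5% and 20.6% after loess normalization. The genes at least 2-fold lower as deposited and under quantile, loess and median-centred scaling were 13 in number: snrpd3, snrpb, snrpc, snrpa, snrpb2, sf3a3, prpf4, hnrnpc, hnrnpabb, hnrnpa1b, lsm14b, lsm14aa and lsm11. All 5 genes that were at least 2-fold higher as deposited were so under each of these scalings. The share of all genes that stayed at least 2-fold apart under each scaling was not computed. Neither count can thus be called particular to splicing factors.

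The Sm proteins form the ring around U1, U2, U4 and U5 RNA. Of 8 genes, 3 were lower with the mix by at least 2-fold (27.8% of all genes) and 0 higher (20.6%). The median difference was -0.87. Among all genes with a DMSO level of at least 8 the shares were 47.6% lower and 10.0% higher, here and for the groups below. These shares carry the limit of the DMSO floor given above. After loess normalization 2 Sm genes were lower (20.6% of all genes), with a median of -0.49. The gene snrpd3 had a level of 8.14 with the mix, 11.86 with formaldehyde, 11.51 with toluene, 11.38 with benzene and 11.27 with DMSO, a difference of -3.13 for the mix. The other 4 arrays thus lay within 0.59 of each other and far above the mix. Its relative snrpd3l was at -1.31 and snrpb at -1.33, while snrpd1 (-0.89) and snrpe (-0.85) came close to the 2-fold line. By contrast snrpf (0.01), snrpg (0.21) and snrpd2 (0.28) were not lower, although all belong to 1 ring. The probe set of snrpd2 was dim on every array, at 3.88 to 4.41.

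The LSm proteins 2 to 8 make the ring of U6 RNA, and 4 of them were measured. All 4 were below DMSO with the mix as deposited, as were 50.6% of all genes. They were lsm6 at -1.02, lsm8, the subunit particular to the nuclear ring, at -0.98, lsm4 at -0.86 and lsm7 at -0.29. After loess normalization lsm7 was at 0.47 and the group's median, -0.92 as deposited, was -0.22.

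Among the proteins particular to U1, snrpa and snrpc were lower with the mix and snrnp70 was not. The gene snrpc, whose protein helps U1 hold the 5′ splice site, had 9.65 with the mix, 11.86 with formaldehyde, 11.66 with toluene, 11.68 with benzene and 11.55 with DMSO. The difference of -1.90 was 3.73-fold in favour of DMSO. For snrpa, whose protein binds the second stem of U1 RNA, the difference was -1.68. The third gene, snrnp70, which binds the first stem of U1 RNA, had 10.12 with the mix and 10.05 with DMSO, above its 9.31 to 9.76 on the single-compound arrays.

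The U2 snRNP had 6 of 10 genes lower with the mix by at least 2-fold and 0 higher, and the median difference was -1.15. Of all genes 27.8% were lower and 20.6% higher, and of those with a DMSO level of at least 8, 47.6% were lower. The gene snrpb2, which encodes the U2B″ protein, had 8.34 with the mix, 11.39 with formaldehyde, 11.21 with toluene, 10.996 with benzene and 11.03 with DMSO, a difference of -2.69. All 3 subunits of the SF3A complex were lower: sf3a3 at -1.81, sf3a1 at -1.55 and sf3a2 at -0.97. The SF3B complex, which holds the branch site, was split. Its genes sf3b4 (-1.69), sf3b3 (-1.28) and sf3b5 (-1.03) were at least 2-fold lower, sf3b2 was at -0.55, and sf3b6 was at 0.28. After loess normalization 2 of the 10 U2 genes were lower and 2 higher by at least 2-fold (20.6% and 21.5% of all genes).

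The largest SF3B subunit ran the other way. The gene sf3b1 had 11.26 with the mix, 10.26 with formaldehyde, 10.27 with toluene, 10.31 with benzene and 10.34 with DMSO, a difference of 0.92. Its second probe set was higher by 1.28. The mix array was the highest on both probe sets, and the other 4 arrays lay within 0.08 of each other on the first. For sf3b4 the second probe set was dim, at 4.58 to 4.59 on all arrays, and differed by 0.01. U2AF recognises the end of the intron ahead of U2. Its small subunit gene u2af1 was at -0.94 and the large subunit gene u2af2b at -0.20. The median of this pair, -0.57, was 0.03 after loess normalization.

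The tri-snRNP group was set by a list that also takes in prpf38a, prpf38b, prpf4ba and prpf4bb. All genes of this group lay on one side as deposited. All 11 were below DMSO with the mix (50.6% of all genes), 7 by at least 2-fold (27.8% of all genes), with a median of -1.19. Of all genes with a DMSO level of at least 8, 47.6% were at least 2-fold lower. The gene prpf4, which with prpf3 belongs to U4/U6, had 8.53 with the mix, 10.52 with formaldehyde, 10.41 with toluene, 10.22 with benzene and 10.60 with DMSO, a difference of -2.07. The U4-binding prpf31 was at -1.71, the kinase gene prpf4bb at -1.39, the U5 gene snrnp40 at -1.36, prpf38b at -1.30, prpf38a at -1.19 and snrnp27 at -1.14. The large U5 scaffold prpf8, at the heart of the catalytic centre, differed least, with 10.08 with the mix and 10.41 with DMSO (-0.32). Between them lay prpf3 at -0.94, prpf6, which bridges U5 and U4/U6, at -0.57, and prpf4ba at -0.45. After loess normalization 8 of the 11 were below DMSO, 1 by at least 2-fold (20.6% of all genes). Their median was then -0.50, beside -0.07 over all genes.

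Few genes were measured in the remaining spliceosome groups. The ubiquitin ligase gene prpf19, of the complex that activates the spliceosome, was at -1.21 with the mix, and the U1-associated prpf39 at 0.26. Of the minor spliceosome, which removes a rare class of introns, snrnp35 was at -0.86 and snrnp48 at 0.54.

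**Figure D2:**
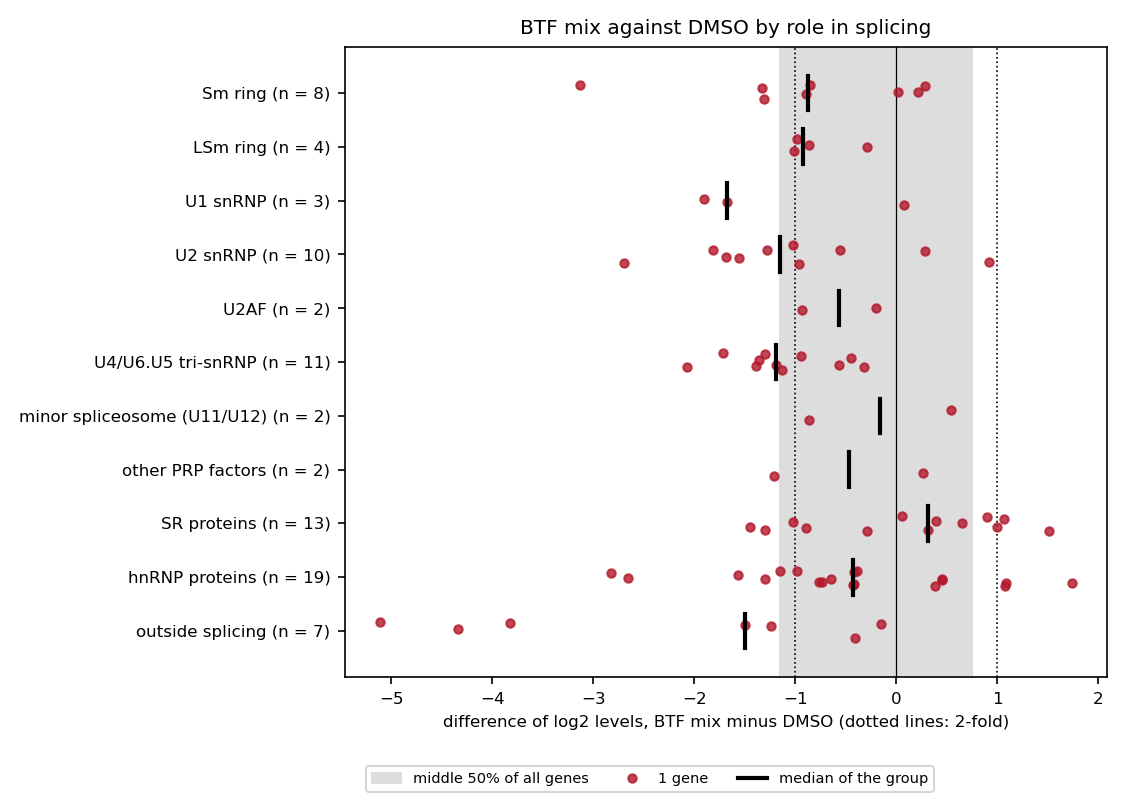
Difference of log2 levels, BTF mix minus DMSO, for each of the 81 genes (points) by role, with the group's median (black bar) and the middle 50% of all 8793 genes (grey). The tri-snRNP group lies wholly below 0, where 50.6% of all genes lie, while the SR group spans from -1.45 to 1.51.

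SR genes were split with the mix. Of 13, 3 were lower and 2 higher by at least 2-fold (27.8% and 20.6% of all genes), and the median difference was 0.32. After quantile and loess normalization the median was 0.58 and 1.09. The gene srsf5a had 9.86 with the mix, 8.28 with formaldehyde, 8.30 with toluene, 8.40 with benzene and 8.35 with DMSO, a difference of 1.51. The mix array was the highest by far, and the other 4 were within 0.12 of each other. The gene srsf1a, for the protein known as SF2/ASF in mammals, had 9.39 with the mix and 8.33 with DMSO, a difference of 1.06. Its copy srsf1b was just under the 2-fold line at 0.998, and higher by 1.68 on its second probe set. Also above DMSO were srsf6b (0.90), srsf2b (0.65), srsf5b (0.39), srsf3b (0.32) and srsf2a (0.05).

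The lower SR genes were fewer. The gene srsf10b, whose mammalian counterpart represses splicing when dephosphorylated, had 8.61 with the mix, 10.00 with formaldehyde, 10.00 with toluene, 9.99 with benzene and 10.05 with DMSO, a difference of -1.45. The gene srsf6a was at -1.30, with -1.32 and -0.78 on its other probe sets, and srsf7a at -1.03. The remaining pair was srsf4 at -0.89 and srsf11 at -0.29. After loess normalization 0 of the 13 were lower and 7 higher by at least 2-fold (20.6% and 21.5% of all genes).

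Of 19 hnRNP genes, 5 were lower and 3 higher with the mix by at least 2-fold, near the shares of all genes (27.8% and 20.6%). The median was -0.43 as deposited and 0.07 after loess normalization, so the group has no settled direction. The gene hnrnpc, whose protein binds uridine tracts, had 8.55 with the mix, 11.82 with formaldehyde, 11.48 with toluene, 11.44 with benzene and 11.38 with DMSO, a difference of -2.83. For hnrnpabb the levels were 10.65 with the mix, 13.14 with formaldehyde, 13.15 with toluene, 13.27 with benzene and 13.30 with DMSO, a difference of -2.66. In both genes the mix was far below the other 4 arrays. The other lower genes were hnrnpa1b (-1.56), hnrnpub (-1.30) and hnrnpd (-1.15). The second probe set of hnrnpd differed by 1.63, so its direction is not settled, and it was at 0.24 when its probe sets were averaged.

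The higher hnRNP genes were hnrnpua and both hnrnpa0 copies. The gene hnrnpua had 6.82 with the mix, 5.35 with formaldehyde, 5.18 with toluene, 5.38 with benzene and 5.08 with DMSO, a difference of 1.74. This was the highest of the 81 as deposited, but after quantile and loess normalization srsf5a was higher (1.75 and 2.24, against 1.65 and 1.17 for hnrnpua). On the other 4 arrays this probe set was dim, and its DMSO level lay below that array's first quartile (5.37). For hnrnpa0a and hnrnpa0b the differences were 1.09 and 1.07, with 0.56 to 1.85 and 0.55 to 2.17 on their other probe sets, so that all 7 probe sets of the pair were higher with the mix. Smaller positive differences were seen for hnrnpaba (0.45), hnrnph1 (0.45) and hnrnpdl (0.38). The remaining 8 genes, hnrnpl2, hnrnph1l, hnrnpa0l, hnrnpr, hnrnpul1, hnrnpl, hnrnpm and hnrnpk, lay from -0.98 to -0.39. Of these hnrnpa0l had the same level, 13.49, on the 4 other arrays.

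The symbol rule also took in 7 LSm genes whose known work lies outside splicing, and 3 of them had the lowest differences of all 81 as deposited. The gene lsm14b belongs to the RAP55 family, which binds messenger RNA in cytoplasmic granules and represses its translation, in frog and mouse oocytes among other cells. It had 6.36 with the mix, 11.51 with formaldehyde, 11.28 with toluene, 11.52 with benzene and 11.47 with DMSO. The difference of -5.12 was 34.7-fold in favour of DMSO. Another member of that family, lsm14aa, was at -4.34. Its level with the mix, 5.34, lay below that array's first quartile of 5.71, so the size of its difference rests on weak signal. In addition, its other probe sets, both below 7 on the DMSO array, were at -0.08 and 0.22.

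The gene lsm11, of the U7 snRNP that cuts histone messages, was at -3.82, and at -3.65 on its second probe set. For lsm12a the difference was -1.502, with -2.27 and -2.26 on its other probe sets, and for lsm12b it was -0.41. The gene lsm1, of the cytoplasmic ring that starts mRNA decay, was at -1.25, and lsm14ab at -0.15. Without these 7 genes, 28 of 74 were lower (37.8%, beside 27.8% of all genes) and 5 higher (6.76%, beside 20.6%) with the mix by at least 2-fold. Their median was -0.86.

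Zebrafish keep many genes in a pair of copies from the genome duplication of bony fishes, and 11 pairs named a and b were among the 81. With the mix, 6 pairs differed by at least 1 between the copies, and in 3 of these one copy was above DMSO and the other below. Pairs of copies outside the 81 were not counted, so these counts cannot be called particular to splicing factors. Over all genes the differences with the mix had quartiles of -1.15 and 0.75. In the hnrnpab pair hnrnpaba was at 0.45 and hnrnpabb at -2.66. In the hnrnpu pair, which encodes a nuclear scaffold protein, hnrnpua was at 1.74 and hnrnpub at -1.30. The hnrnpua probe set was dim without the mix, with a DMSO level of 5.08. The other hnrnpub probe sets were at -1.29 and, on one dim on every array, 0.06. In the srsf6 pair srsf6b was at 0.90 and srsf6a at -1.30. These gaps, 3.11, 3.04 and 2.196, lay between 2.03 and 3.55 under the 3 other scalings and with averaged probe sets, with the same signs.

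The remaining pairs with a gap of at least 1 were lsm14aa, with its weak signal with the mix, and lsm14ab (4.19, or 1.25 with averaged probe sets), srsf5a and srsf5b (1.12) and lsm12a and lsm12b (1.096). The last 2 gaps were 0.97 and 0.89 after quantile normalization, and that of the lsm12 pair 0.88 after loess normalization, while the gap of prpf4ba and prpf4bb, 0.94 as deposited, was 1.16 and 1.12 after these. Copies close to each other were hnrnpa0a and hnrnpa0b, with the smallest gap of 0.01, srsf1a and srsf1b (0.07), and prpf38a and prpf38b (0.11). With the single compounds 0 of the 11 pairs had a gap of at least 1. The largest gap was 0.74 with formaldehyde, 0.98 with toluene and 0.94 with benzene, while the srsf1 and prpf38 copies lay further apart with each single compound than with the mix. Whether a probe set also binds the other copy's RNA was not tested.

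**Figure D3:**
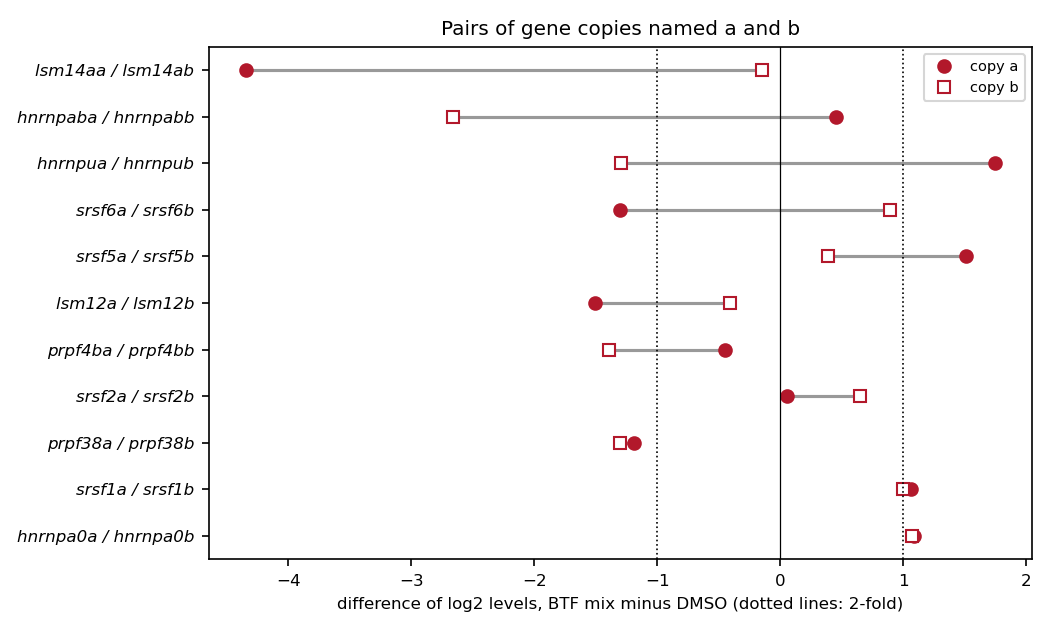
Difference of log2 levels, BTF mix minus DMSO, for the 11 pairs of copies, copy a as filled circles and copy b as open squares, ordered by gap. In the hnrnpab, hnrnpu and srsf6 pairs the copies lie on opposite sides of 0, and the hnrnpa0 and srsf1 copies lie together near 1.

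Other genes of the pathway, from lists kept apart from the 81, can be set beside them. All 20 genes of snRNP assembly and import were below DMSO with the mix (50.6% of all genes). By at least 2-fold 18 were lower (27.8% of all genes, and 47.6% of those with a DMSO level of at least 8). The median of the 20 was -1.97 (-1.35 after loess normalization, with all 20 still below DMSO). They included phax, which exports snRNAs to the cytoplasm (-3.30), snupn, which brings assembled snRNPs back to the nucleus (-3.16), and larp7, which binds small nuclear RNAs (-3.06). Those nearest to DMSO were strap (-0.85), wdr77, a partner of the Sm methylase (-0.88), and ints1 of the Integrator complex (-1.04).

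Of 24 genes of the exon junction complex and mRNA export, 16 were lower and 0 higher with the mix by at least 2-fold (27.8% and 20.6% of all genes). Among all genes with a DMSO level of at least 8, 47.6% were lower and 10.0% higher. The median difference of the 24 was -1.27. The lowest were thoc7 (-3.12) and thoc3 (-2.66) of the THO complex, with the export receptor nxf1a at -3.07 between them, and the highest was the helicase gene ddx39b (0.86), before upf3b (0.08) and srrm1 (-0.04). After loess normalization 7 of the 24 were lower by at least 2-fold (20.6% of all genes). Among 51 other spliceosome proteins, 25 were lower and 2 higher by at least 2-fold (27.8% and 20.6% of all genes). The median difference was -0.85. Of all genes with a DMSO level of at least 8, 47.6% were lower. The U5 gene txnl4a (-2.33), its relative txnl4b (-2.01) and the SF3B subunit phf5a (-1.94) were the lowest, and rbm25a (1.23), u2surp (1.15) and snu13a (0.90) the highest. After loess normalization the counts of these 51 were 8 lower and 6 higher (20.6% and 21.5% of all genes).

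Regulators of alternative splicing ran both ways, as did all genes. Of 45, 12 were lower and 8 higher with the mix by at least 2-fold, near the shares of all genes (27.8% and 20.6%). The median difference was -0.44. The epithelial regulator esrp1 was higher by 3.48, with 10.59 with the mix, 6.86 with formaldehyde, 7.83 with toluene, 7.57 with benzene and 7.11 with DMSO. The RNA-binding genes pcbp4 (1.98) and ptbp1a (1.67) followed. The list shares elavl3 and elavl4 with the brain markers. At the other end were tia1 (-3.08), elavl2 (-3.03) and rbm4.1 (-2.25). Of 8 genes for SR protein kinases, a phosphatase and the SR import receptor, 3 were at least 2-fold lower (27.8% of all genes). These were the kinase genes clk2b (-2.49) and srpk1a (-1.64) and the phosphatase gene ppm1g (-1.29). The kinase genes srpk1b (0.69), clk4a (0.45) and clk2a (0.35) were the highest of this list. The probe set of srpk1b was dim, at 4.57 to 5.29, below the first quartile of each array. After loess normalization 7 of the 45 regulators were lower and 8 higher, and 1 of the 8 kinase-list genes lower and 1 higher. Of all genes 20.6% were then lower and 21.5% higher.

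Marker genes of other cells differed on the mix array as well. All 23 measured oocyte markers were at least 2-fold lower with the mix (27.8% of all genes were), with a median of -6.69. Their summed signal on the linear scale was 2338 with the mix, 232905 with formaldehyde, 216778 with toluene, 215970 with benzene and 220511 with DMSO. Of the defining oocyte genes measured, zar1 had 6.14, zp3b 6.13, buc 5.74 and bmp15 5.60 with the mix, on an array with a first quartile of 5.71 and a median of 6.99. With DMSO zar1 had 13.74, zp3b 13.69, buc 12.90 and bmp15 11.25. The gene ccnb1 is in both the oocyte and the proliferation list.

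In the list of proliferation markers 14 of 17 were at least 2-fold lower with the mix (27.8% of all genes). Their median was -2.43, and mcm3 was higher by 2.13. Of all genes 20.6% were at least 2-fold higher with the mix. Many markers of other tissues were at least 2-fold higher: 15 of 17 for skin and epithelium (median 3.42), 6 of 6 for erythrocytes (2.90), 14 of 15 for liver (2.21), 17 of 19 for skeletal muscle (1.61) and 13 of 15 for brain and nerve (1.51). In the skin list epcam was the other way, at -1.01. The summed signal of skin markers was 89746 with the mix and 20982 with DMSO, that of liver markers 126676 with the mix and 37981 with DMSO, and that of muscle markers 291246 with the mix and 108246 with DMSO. For erythrocyte markers it was 29270 with the mix and 3857 with DMSO, and for brain markers 11546 with the mix and 2990 with DMSO. The 15 testis and sperm markers had a median of 0.00, with summed signals of 1381 with the mix and 2484 with DMSO. At least 2-fold lower were 3, piwil2 (-2.69), odf3l2a (-2.16) and piwil1 (-1.58), and 2 were higher, rsph9 (1.25) and tekt1 (1.16). The genes dmrt1 (5.15), amh (4.85) and spag8 (5.47) were dim on the mix array and no brighter on the others. The part of these markers' cells in the differences of the splicing factor genes was not tested.

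**Figure D4:**
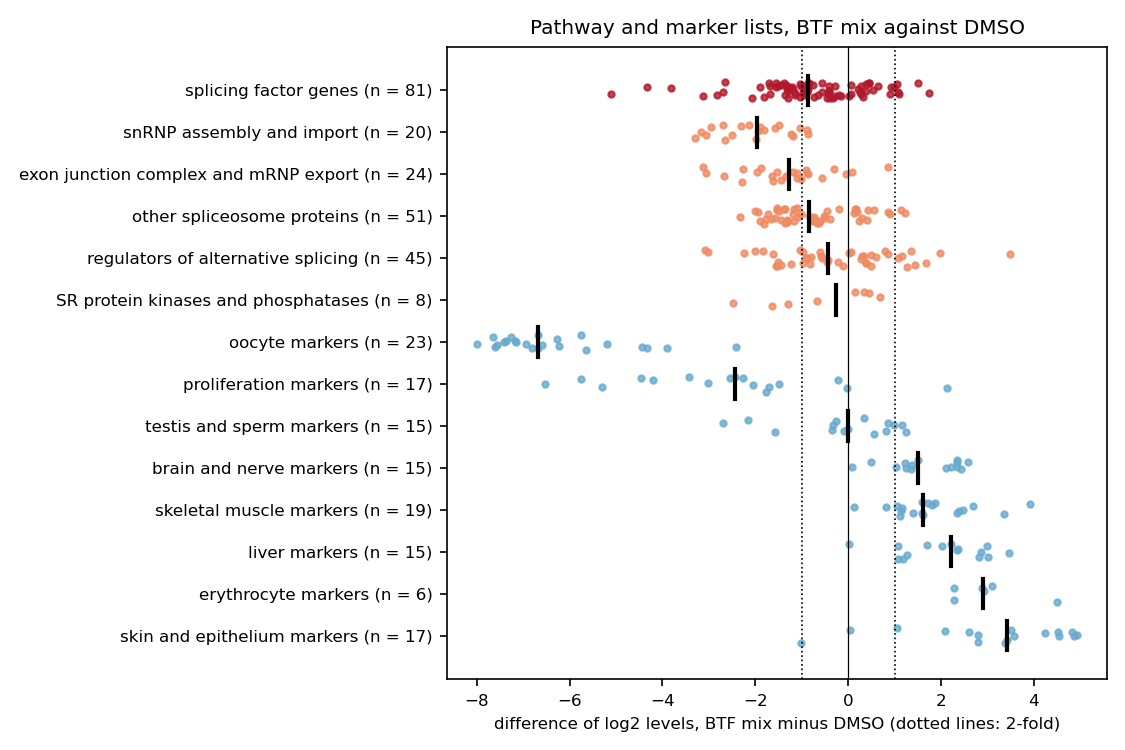
Difference of log2 levels, BTF mix minus DMSO, for the 81 splicing factor genes (dark red), 5 lists of other pathway genes (orange) and 8 marker lists (blue), with medians as black bars. Genes of snRNP assembly lie wholly below 0 and oocyte markers lie at -2.41 or below, while skin, erythrocyte, liver, muscle and brain medians lie above 1.

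With each single compound the splicing factor genes stayed close to DMSO. With formaldehyde 1 of 81 was at least 2-fold lower (1.94% of all genes were) and 0 at least 2-fold higher (1.1%). With toluene 0 were lower (0.535%) and 0 higher (1.74%), and with benzene 0 were lower (0.842%) and 0 higher (1.65%). The medians were 0.03 with formaldehyde, 0.03 with toluene and -0.01 with benzene, and those with toluene and benzene changed sign under other scalings. In each of the 5 lists of other pathway genes, 0 were at least 2-fold apart with any single compound. Over the 4 arrays without the mix, the range of a gene's level had a median of 0.31, the same as for all genes, and its 90th percentile was 0.64, against 0.86 for all genes.

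The gene past the 2-fold line with formaldehyde was sf3a1, a core subunit of SF3A. It had 9.39 with the mix, 9.92 with formaldehyde, 10.26 with toluene, 10.26 with benzene and 10.94 with DMSO. All 4 exposed arrays thus lay below the DMSO array, with differences of -1.55 with the mix, -1.03 with formaldehyde, -0.69 with toluene and -0.69 with benzene. Centring each array on its median gave a formaldehyde difference of -0.98, and against the mean of the other 3 arrays without the mix it was -0.57. The gene hnrnpa1b had the same order, with differences of -1.56 with the mix, -0.70 with formaldehyde, -0.53 with toluene and -0.52 with benzene. The DMSO array lay above all 3 single-compound arrays for 25 of the 81 genes (29.4% of all genes) and below all 3 for 26 (22.7%).

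Further members at the edges with formaldehyde were snrnp70 (-0.74), and on the high side lsm1 (0.67), srsf3b (0.64) and snrnp48 (0.63). The second probe set of snrnp70, dim on every array, was at 0.10. With toluene the lowest were lsm12a (-0.73), sf3a1 (-0.69) and hnrnpa1b (-0.53), and the highest were sf3b5 (0.71), sf3b3 (0.61) and srsf3b (0.49). With benzene the lowest were lsm12a (-0.78), sf3a1 (-0.69) and lsm14ab (-0.58), and the highest were srsf5b (0.59), sf3b3 (0.46) and hnrnpua (0.30). A second probe set of lsm12a was at -1.28 with toluene and -1.32 with benzene, with -0.34 for formaldehyde, so this gene passed the 2-fold line on a probe set other than the one that stands for it. One further probe set did so, that of lsm14aa with benzene (1.01), where the main one was at -0.18.

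By role, the Sm and hnRNP genes lay mostly on opposite sides of DMSO with formaldehyde, by small differences, while tri-snRNP genes had a median of -0.01 with 5 of 11 above DMSO. These sides were not particular to Sm and hnRNP genes. Medians were 0.43 for the minor spliceosome, 0.31 for U1, 0.21 for U2, 0.18 for U2AF and 0.16 for LSm genes. They were 0.04 for the genes outside splicing and -0.16 for other PRP factors. Of 13 SR genes 9 were below DMSO, with a median of -0.01, and 5 were after median centring. Of 8 Sm genes 7 were above DMSO (47.6% of all genes were), with a median of 0.30 (0.25 to 0.34 under the other scalings), and snrpd3 was the highest at 0.59. Of 19 hnRNP genes 13 were below DMSO (49.4% of all genes were), with a median of -0.33 (-0.32 to -0.20 under the other scalings and with averaged probe sets), among them hnrnph1l (-0.59) and hnrnpm (-0.41), against hnrnpc at 0.45. With toluene 7 of 8 Sm genes were above DMSO (43.8% of all genes) and 14 of 19 hnRNP genes below it (52.7%), with medians of 0.12 and -0.06. With benzene 5 Sm genes were above DMSO (44.4%) and 13 hnRNP genes below it (51.7%), with medians of 0.06 and -0.04. After median centring the Sm genes above DMSO were 6 with toluene and 4 with benzene. The gap between probe sets of 1 gene with formaldehyde had a median of 0.28 over the 17 splicing factor genes that have several, close to the size of these shifts, and of 0.20 over all 1539 such genes. These shifts have no replicate check. Marker levels also differed on the single-compound arrays. The 17 skin markers had medians of -1.07 with formaldehyde, 0.91 with toluene and 1.07 with benzene, the 19 muscle markers 0.67, 0.24 and 0.09 in that order, and the 23 oocyte markers 0.18, 0 and -0.00. Their part in the values of the splicing factor genes was not tested.

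Toluene carries 1 methyl group more than benzene. The doses are not given, so their values stand side by side only. For U2 genes the median was -0.02 with toluene and -0.03 with benzene, for tri-snRNP genes 0.05 with toluene and 0.03 with benzene, and for SR genes 0.03 with toluene and -0.01 with benzene. Among single genes sf3b5 had 0.71 with toluene and 0.13 with benzene, and srsf5b 0.09 with toluene and 0.59 with benzene.

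**Figure D5:**
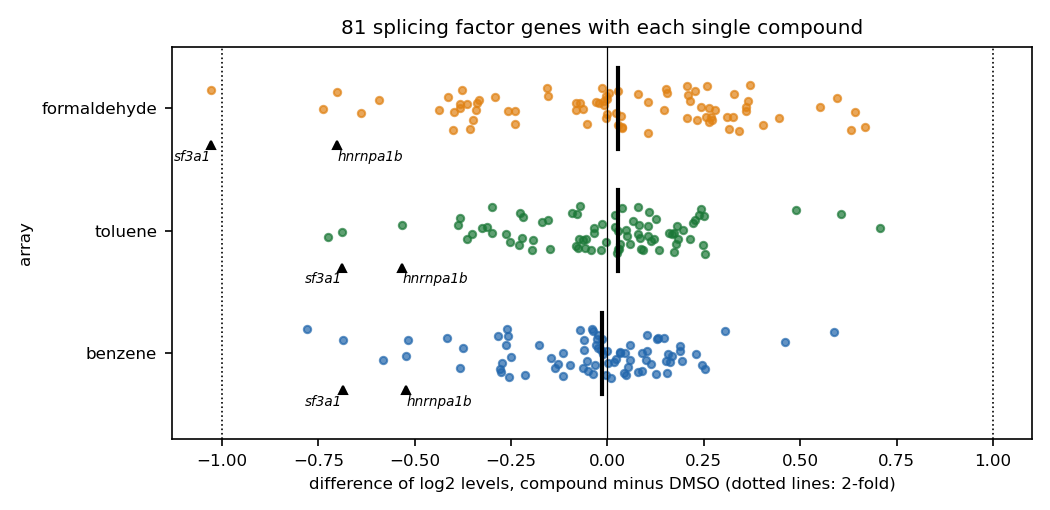
Difference of log2 levels from DMSO for the 81 genes (points) with formaldehyde, toluene and benzene, with the median as a black bar; triangles mark sf3a1 and hnrnpa1b. The points lie between the 2-fold lines except sf3a1 with formaldehyde at -1.03.

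Of the 81 genes, 64 had 1 probe set and 17 had several. For 13 of these 17 all probe sets had the same sign with the mix, and the largest gap between probe sets was that of lsm14aa, 4.56. With formaldehyde 9 of the 17 had the same sign on all probe sets, with toluene 6 and with benzene 4. The genes snrpd2, hnrnpua and snrnp48 did not reach the median of all deposited values (7.02) on any array. The other 78 did.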

How the data were processed

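The 5 arrays are Affymetrix zebrafish arrays hybridised with biotin-labelled cRNA, 1 per condition, per the labels' protocols. The deposited values are log2 levels of probe sets, from 3.15 to 15.04, with array medians of 6.98 to 7.06. RMA, MAS5 and Affymetrix Expression Console 1.1 are named in the submitters' processing notes with no role given. The log2 base was read from the values, which have the features of RMA. Whether quantile normalization between arrays was used is not stated. The first quartile was 5.71 on the mix array and 5.35 to 5.37 on the others, so the probe set values do not share 1 distribution. The array medians lie close together, and scaling between arrays would hide a change in total mRNA per cell, so such a change is not visible. Arrays hold no read depth, and their number limits the precision.

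After 115 controls were left out, 15502 probe sets remained. The platform annotation names 1 gene for 10795 of them, several for 135 and no gene for 4572. By Entrez ID, 10711 of the first were found in RefSeq's table (assembly GRCz12tu), and for all 81 genes, with 0 changes of symbol. Each gene is its probe set with the highest mean of the 5 arrays. Differences are exposed minus DMSO on the log2 scale, counted at 1 or more (2-fold), with no level filter. No test, SD or p-value was computed. The genes named are the 15 highest and lowest with the mix, those past 2-fold or the 3 highest and lowest with each compound, the ends of each role group and list, the gene copies, and all LSm genes outside splicing; the other members are also given. The members, lists and roles were chosen with earlier results of these data known. Alternatives were quantile and cyclic loess normalization (limma 3.58.1 in R 4.3.3), median centring, averaged probe sets, the probe set with the highest single value, a level filter, another reference, and 1.5-fold and 3-fold thresholds. The background by DMSO level and the scaling of lists and copies were added after seeing the data. Counting was tested on simulated data. Python 3.11.15 with pandas 2.3.3 did the rest.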

Additional observations from a re-analysis of the deposited data

How the results depend on the processing

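A count is taken as unchanged within 1.5 times its main value, and a difference or median when it moved by no more than the median gap between probe sets of 1 gene (0.62 with the mix, 0.20 with formaldehyde, 0.18 with toluene, 0.17 with benzene). By these limits 97 values of counts and medians over the 4 comparisons stayed and 15 moved. The limits are wide: the mix median, -0.86 as deposited and -0.24 after loess normalization, lies just within them. Medians near 0 with the single compounds could hardly move past them. The count of 97 is thus no measure of how stable the results are. With the mix 5 genes were at least 2-fold higher as deposited, 8 after quantile and 13 after loess normalization, and 33 were lower as deposited and 14 after loess normalization; the cause was not tested. The mix median stayed negative, from -0.93 to -0.24 (loess). The medians near 0 did not keep their sign: with toluene 0.03 as deposited was -0.01 after median centring and -0.01 against the mean of the other arrays, and with benzene -0.01 was 0.04 after loess normalization. At 1.5-fold 9 genes were higher with the mix (28.8% of all genes) and 46 lower (36%), and at 3-fold 1 higher (13.3%) and 13 lower (16.0%, against 17.5%). With formaldehyde 1 gene was lower as deposited, 0 after median centring, 0 against the mean of the other arrays, 0 at 3-fold and 5 at 1.5-fold (5.61% of all genes), where 4 were higher (4.61%). At 1.5-fold 2 were higher (4.77%) and 2 lower (2.84%) with toluene, and 1 higher (4.29%) and 2 lower (3.34%) with benzene. With a level filter at the median of all values 78 genes remained, of which 33 were at least 2-fold lower with the mix (35.8% of 6675 genes) and 4 higher (23.2%). Of the differences of single named genes 2919 values stayed, 168 moved and 1 reversed. The reversed value was that of hnrnpd with the mix, at 0.24 with averaged probe sets. It was the 1 member at least 2-fold apart with the mix that changed sign. Smaller differences with the mix also changed sign and are not counted as reversed. After loess normalization lsm7 went from -0.29 to 0.47, prpf8 from -0.32 to 0.33 and hnrnpl from -0.42 to 0.38, among others. No paired analysis was possible because each condition has 1 array, and no replicate could be left out.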
